A study of Homo sapiens with 12 samples.

Results

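The genes that encode or build surface markers of myeloid maturation were followed in 2 acute myeloid leukemia (AML) cell lines treated with Jiyuan oridonin A (JOA), an ent-kaurene diterpenoid. They were the rows of the expression table with the symbols ITGAM (CD11b), ITGAX (CD11c), CD14, CD86, FUT4 (the enzyme that builds CD15), ANPEP (CD13), CD33, CD34, CD38 and CD4, which made 10 of 20030 rows. MOLM-13 cells, an AML line with a rearranged MLL gene and the FLT3/ITD mutation, were treated with 0.5 μM JOA. THP-1 cells, an AML line of monocytic character with rearranged MLL and wild-type FLT3, were treated with 2 μM JOA. Control cells of each line received the solvent DMSO, all cells were collected at 48 h by the labels and the study's methods, although a legend in the study gives a longer time, and each of the 4 groups held 3 libraries. The doses therefore differed between the lines, and each line stands for a single patient's leukemia grown in culture. The labels do not say whether the replicates were separate cultures, so p-values measure only the spread between these libraries, which may be technical.

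Myeloid cells lose and gain surface proteins in a set order as they mature. CD34 marks stem and progenitor cells, CD33 and CD13 appear on committed myeloid precursors, and the β2 integrins CD11b and CD11c, the lipopolysaccharide receptor CD14 and the carbohydrate CD15 mark monocytes, macrophages and granulocytes. Leukemic blasts are arrested along this path, which is why CD11b and CD14 are widely used to follow differentiation of AML cells under a drug. The table gave FPKM, the number of fragments scaled to transcript length and to the mapped fragments of the library. Levels can be compared between genes, but only approximately between libraries, because FPKM does not add up to the same sum in each. The sum ran from 291127 in THP-1 JOA 1 to 325023 in MOLM-13 JOA 1. The libraries are bulk samples, in which fewer cells of a type and less RNA per cell cannot be told apart. Protein on the cell surface was not analysed here.

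On the human genome build GRCh38, ITGAM lies on chromosome 16 from 31259967 to 31332892 and ITGAX starts 22241 bp beyond its end, from 31355134 to 31382997 on the same strand. The promoters of 8 of the 10 genes could be read from RefSeq (GRCh38.p14) as windows from 250 bases before to 50 bases after each start, and ITGAX and CD4 had no entry. The windows were searched on both strands for GAGGAA, the core sequence bound by the myeloid transcription factor PU.1, whose reverse complement is TTCCTC. It was present in 5 of the 10 windows of these genes and in 27.9% of 35116 windows of all genes. The windows of 4 genes are shown in lower case with each match in capitals, those of ITGAM and CD33, whose JOA values lay above control in both lines, of ANPEP, which separated the lines most, and of CD34, which was nearly silent.
ITGAM (chr16:31259725-31260024, plus strand): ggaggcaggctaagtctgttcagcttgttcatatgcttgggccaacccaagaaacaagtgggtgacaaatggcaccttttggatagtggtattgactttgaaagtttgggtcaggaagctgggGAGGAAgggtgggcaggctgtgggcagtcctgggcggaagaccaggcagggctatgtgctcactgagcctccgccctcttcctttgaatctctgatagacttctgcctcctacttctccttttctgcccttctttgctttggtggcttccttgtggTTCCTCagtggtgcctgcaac
CD33 (chr19:51224830-51225129, plus strand): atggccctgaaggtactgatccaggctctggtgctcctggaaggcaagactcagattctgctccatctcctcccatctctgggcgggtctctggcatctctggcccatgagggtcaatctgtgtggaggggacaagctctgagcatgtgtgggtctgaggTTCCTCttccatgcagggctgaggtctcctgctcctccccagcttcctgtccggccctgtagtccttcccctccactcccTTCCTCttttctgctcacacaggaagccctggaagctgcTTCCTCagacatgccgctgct
ANPEP (chr15:89814803-89815102, minus strand): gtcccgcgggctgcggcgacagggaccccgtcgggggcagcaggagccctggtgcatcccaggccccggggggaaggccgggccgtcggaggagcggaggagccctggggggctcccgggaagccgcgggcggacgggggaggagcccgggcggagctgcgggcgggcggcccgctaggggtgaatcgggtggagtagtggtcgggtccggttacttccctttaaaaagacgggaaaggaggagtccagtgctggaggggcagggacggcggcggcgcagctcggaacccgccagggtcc
CD34 (chr1:207911076-207911375, minus strand): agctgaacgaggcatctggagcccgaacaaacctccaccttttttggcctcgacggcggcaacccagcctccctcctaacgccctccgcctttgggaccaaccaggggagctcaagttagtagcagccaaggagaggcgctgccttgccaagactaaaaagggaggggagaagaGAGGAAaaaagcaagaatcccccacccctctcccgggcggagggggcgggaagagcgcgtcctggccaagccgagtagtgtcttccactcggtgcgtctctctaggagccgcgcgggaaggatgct
The ITGAM window held 2 matches and the CD33 window held 3. The CD34 window held 1, while neither ANPEP window held any. CD14 held 1 and the first CD86 start held 3, whereas CD38, FUT4 and the second CD86 start held none. A match describes these letters and is not a binding site, and a window without one says only that these letters are not in it.

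The 12 libraries were close to each other within a line. Pearson's r of log2(FPKM + 0.1) across genes lay between 0.989 and 0.996 among MOLM-13 libraries and between 0.987 and 0.995 among THP-1 libraries. Depth relative to control replicate 1, read from the smallest values of each library, was 0.867 to 1 in MOLM-13 cells and 0.931 to 1.07 in THP-1 cells, and total depth is unknown. Genes of myeloid identity, such as LYZ, PRTN3 and AZU1, reached means of 2473, 2346 and 1059 FPKM in MOLM-13 control cells and 1032, 1205 and 511 FPKM in THP-1 control cells. Markers of other lineages were low beside these genes. The B cell marker CD79B, at 8.75 FPKM in THP-1 controls, still exceeded ITGAM there (3.94 FPKM). So did the erythroid marker EPOR, at 6.92 FPKM in MOLM-13 controls, against 2.87 FPKM for ITGAM. The 9 T and NK cell markers summed to 3.56 to 6.35 FPKM in MOLM-13 control and 3.85 to 4.07 FPKM in MOLM-13 JOA libraries, against 0.471 to 0.867 and 0.292 to 0.562 FPKM in THP-1 cells, mostly from CD3D and NCAM1 in the former and CD8A and NCAM1 in the latter. The 6 B cell markers summed to 0.278 to 0.538 and 0.387 to 0.505 FPKM in MOLM-13 control and JOA libraries, and to 9.56 to 11.2 and 8.96 to 10.4 FPKM in THP-1 cells, mostly from CD79B. The 8 erythroid and megakaryocyte markers summed to 6.80 to 7.31 and 5.60 to 7.42 FPKM in MOLM-13 cells and to 4.46 to 5.10 and 4.78 to 6.46 FPKM in THP-1 cells, mostly from EPOR. CD3G, CD8B, KLRD1, HBB, GATA1 and PF4 were listed at 0 in all libraries.

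In untreated cells the markers spread over a wide range of levels. MOLM-13 control cells had FUT4 (46.5 ± 0.534 FPKM, SD, n = 3) and CD4 (45.8 ± 2.05 FPKM) at the top, followed by CD33 (21.4 ± 0.727 FPKM) and CD38 (8.84 ± 3.35 FPKM). ITGAX, CD86 and ITGAM came next with 3.60 ± 1.57, 3.42 ± 0.823 and 2.87 ± 0.526 FPKM, and their libraries overlapped, as did those of FUT4 and CD4. ANPEP and CD14 were low at 0.390 ± 0.148 and 0.144 ± 0.106 FPKM, with overlapping values, and CD34 was listed at 0. THP-1 control cells also had FUT4 (50.2 ± 7.02 FPKM) and CD4 (43.7 ± 1.67 FPKM) highest, with overlapping values. The next were ANPEP (13.9 ± 1.49 FPKM), CD38 (10.5 ± 6.18 FPKM) and CD33 (5.78 ± 0.347 FPKM), of which each overlapped its neighbour, then ITGAM (3.94 ± 0.982 FPKM) and ITGAX (2.30 ± 1.14 FPKM), which also overlapped. CD14 and CD86 were at 0.548 ± 0.322 and 0.202 ± 0.0776 FPKM, with overlapping values. With JOA the order in THP-1 cells was the same, but FUT4 no longer overlapped CD4 and ITGAM now overlapped CD33. ITGAM no longer overlapped ITGAX there, and CD14 no longer overlapped CD86. In MOLM-13 cells with JOA, CD4 and FUT4 traded places, as did ITGAM and CD86, in both cases with overlapping values. Transcripts for the CD15 enzyme and CD4 were thus abundant in both lines, and those for CD14 and CD34 were scarce.

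The control cells of the 2 lines differed in 4 of the 9 markers that passed the filter on low values, and 44% of the 12635 genes tested differed between the lines by the same call, limma's moderated test with a Benjamini-Hochberg adjusted p under 0.05 and a log2 difference of at least 0.58 in size. ANPEP, aminopeptidase N, was higher in THP-1 cells by 4.88 on the log2(FPKM + 0.1) scale (SE 0.21). CD14, which presents lipopolysaccharide to TLR4, was higher in THP-1 cells by 1.34 (SE 0.44, adjusted p = 0.0246). The CD14 call was lost when MOLM-13 control 1 or 2 or THP-1 control 2 or 3 was left out, with log2 differences of 1.21, 1.14, 1.21 and 1.00, and with a pseudocount of 1, where the difference was 0.42. CD33, an inhibitory siglec receptor, was lower in THP-1 cells, with a log2 difference of -1.87 (SE 0.07). CD86, the ligand of CD28 on T cells, was lower too, with a log2 difference of -3.55 (SE 0.23). The tests of ITGAM (0.43, adjusted p = 0.0961), ITGAX (-0.67, adjusted p = 0.192), CD38 (0.11), CD4 (-0.07) and FUT4 (0.10) missed the threshold. The ITGAM difference was 0.65 with an adjusted p of 0.00986 without THP-1 control 1.

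**Figure D1:**
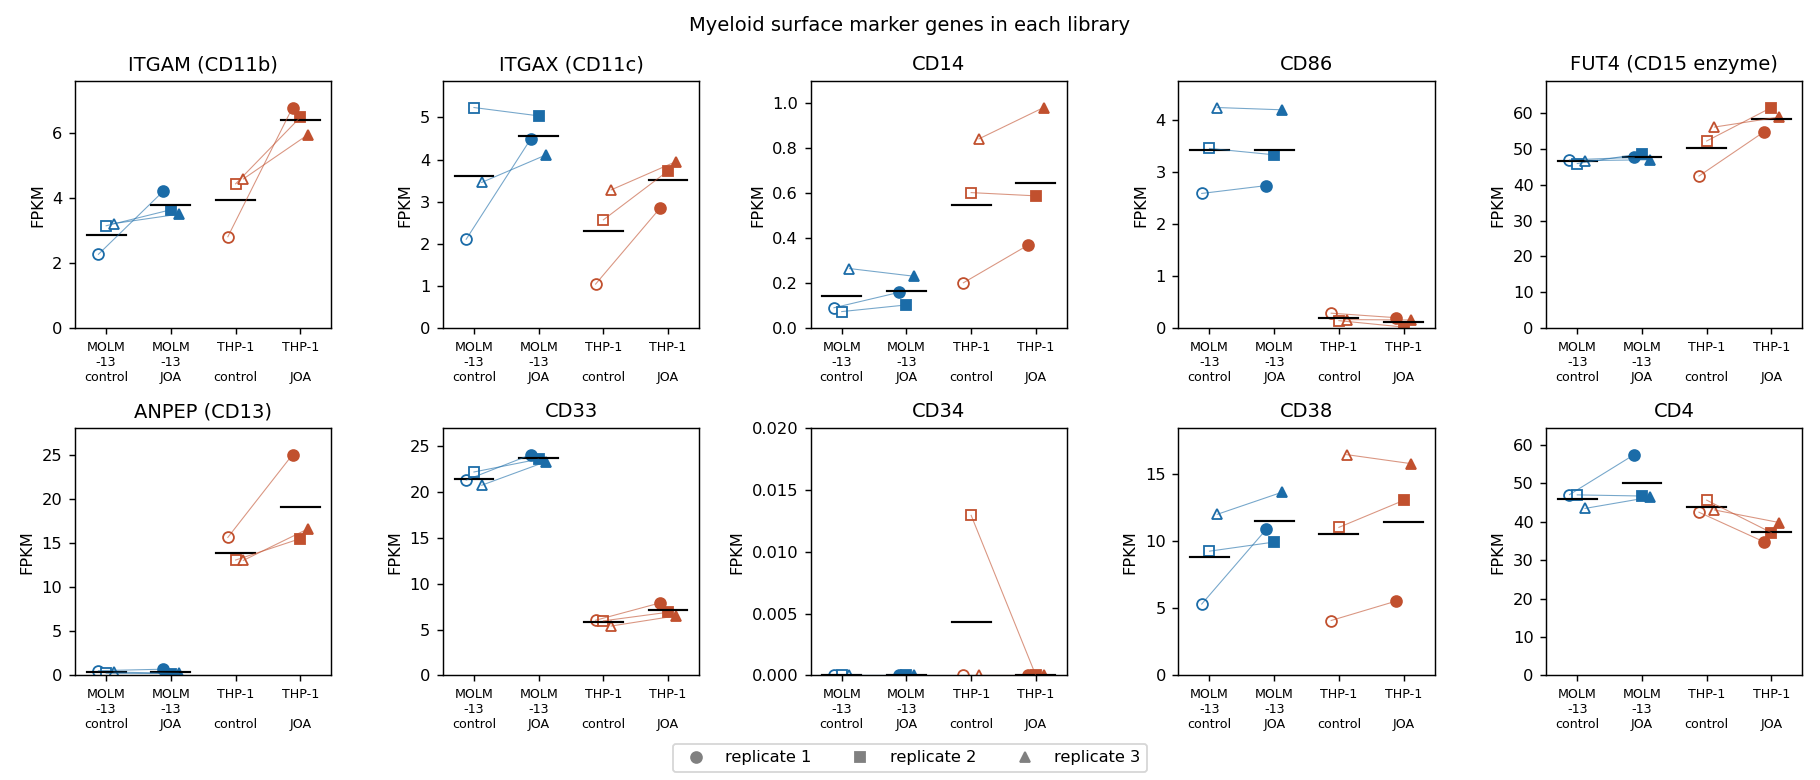
FPKM of each of the 10 genes (vertical axis, from 0) in the 4 groups (horizontal axis), with open symbols for control, filled symbols for JOA, black bars for the mean of 3 libraries and thin lines joining libraries of the same replicate number. ITGAM and CD33 lie above every control in both lines, CD4 lies below every control in THP-1 cells, and the replicate numbers of CD14 and CD86 keep the same order in control and JOA cells of each line.

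ITGAM, the CD11b chain of complement receptor 3, rose with JOA in THP-1 cells when same-numbered libraries were compared, and missed the call when they were not. The control libraries 1, 2 and 3 of THP-1 cells had 2.81, 4.43 and 4.58 FPKM, and the JOA libraries had 6.77, 6.47 and 5.94 FPKM. All JOA values lay above all control values, and the log2 fold change was 0.71 (SE 0.17), or 1.64-fold. The adjusted p of limma over all 12712 genes tested was 0.103, and once the replicate number was fitted as a block it fell to 0.0348, which passed both thresholds. In pairs 1, 2 and 3 the log2 difference was 1.24, 0.54 and 0.37, so that the pair of replicate 1 held the highest. Without both libraries of replicate 1 the blocked log2 fold change was 0.45 (adjusted p = 0.0122), below the threshold of 0.58, and without those of replicate 2 or 3 it was 0.80 and 0.89 (adjusted p = 0.0197 and 0.00759). The blocked call also ended when every gene with any value above 0 was kept, a wider set of 16046 genes, with an adjusted p of 0.136.

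In MOLM-13 cells ITGAM had 2.27, 3.14 and 3.21 FPKM in the controls and 4.20, 3.63 and 3.50 FPKM with JOA. The groups did not overlap here either, and the log2 fold change was 0.39 (SE 0.14), but the adjusted p was 1.00 without the block and 0.396 with it. The pair of replicate 1 again held the highest log2 difference, 0.86 against 0.20 and 0.12, and without control 1 the log2 fold change was 0.24. The change in THP-1 cells exceeded that in MOLM-13 cells by 0.32 on the log2 scale, with a 95% interval from -0.22 to 0.86 and an adjusted p of 0.870 in the interaction of line and treatment. A difference in ITGAM response between the lines was therefore not detectable with these libraries.

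ITGAX, the CD11c chain of complement receptor 4, is the neighbor of ITGAM on chromosome 16. In THP-1 cells it had 1.05, 2.57 and 3.28 FPKM in the controls and 2.86, 3.73 and 3.95 FPKM with JOA. The groups overlapped although each JOA library was above the control of its number. Its log2 fold change was 0.72 (SE 0.36), as large as that of ITGAM, with an adjusted p of 0.364, or 0.0622 with the replicate block. With the block and without both libraries of replicate 1, 2 or 3 it was 0.39, 0.81 and 0.94 (adjusted p = 0.0420, 0.0453 and 0.0130), of which the first was below the fold threshold. Without the block, leaving out THP-1 control 1 alone took it to 0.25. MOLM-13 cells had 2.11, 5.23 and 3.46 FPKM in the controls and 4.49, 5.03 and 4.11 FPKM with JOA, and the log2 fold change of 0.41 missed the threshold without and with the block (adjusted p = 1.00 and 0.467). It was 0.09 without MOLM-13 control 1 and 0.72 without MOLM-13 control 2.

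Both integrin chains need the β2 chain ITGB2 to reach the surface, and this partner was abundant. ITGB2 had 145 ± 16.0 and 154 ± 6.80 FPKM in THP-1 control and JOA cells, a log2 fold change of 0.09 that missed the threshold (adjusted p = 0.654). ITGAL, the α chain of LFA-1 that shares ITGB2, had 12.3 ± 2.52 and 18.2 ± 0.875 FPKM in THP-1 cells. Its log2 fold change of 0.59 had an adjusted p of 0.101, and with the replicate block ITGAL rose (adjusted p = 0.0156). Of the 14 listed integrin and CD14 partners, 12 were tested in each line, and 0 passed the call without the block. With the block 2 rose in THP-1 cells, where 1.27% of all genes tested were called, ITGAL and TLR6, a toll-like receptor that pairs with TLR2 (0.965 to 1.51 FPKM, log2 fold change 0.60, adjusted p = 0.0315). CEBPA, a transcription factor of the granulocyte and monocyte lineages, had 208 ± 3.16 and 200 ± 12.8 FPKM in THP-1 control and JOA cells. The list's median log2 fold change was 0.18 in THP-1 and 0.08 in MOLM-13 cells, against 0.02 and 0.01 over all genes tested.

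CD14 remained a low transcript under JOA. MOLM-13 controls had 0.0913, 0.0743 and 0.265 FPKM and JOA libraries had 0.159, 0.104 and 0.231 FPKM. THP-1 controls had 0.202, 0.601 and 0.840 FPKM and JOA libraries had 0.369, 0.587 and 0.978 FPKM. The groups overlapped in both lines, and the mean log2 difference was 0.17 in MOLM-13 and 0.27 in THP-1 cells, with adjusted p of 0.825 and 0.361 even with the block. Their 95% intervals with the block ran from -0.39 to 0.74 and from -0.13 to 0.67, and the sign turned in both lines when single libraries were left out.

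CD86 separated the lines. MOLM-13 cells had 2.58, 3.45 and 4.23 FPKM in the controls and 2.74, 3.32 and 4.19 FPKM with JOA, nearly the same value at each replicate number, and the blocked 95% interval of the log2 fold change ran from -0.16 to 0.17. THP-1 cells had 0.291, 0.147 and 0.167 FPKM in the controls and 0.205, 0.0244 and 0.160 FPKM with JOA. The values overlapped although all 3 pairs were lower with JOA, and the log2 fold change of -0.46 missed the threshold (adjusted p = 0.569 and, with the block, 0.299). Without JOA replicate 2 it was -0.07. Among 11 costimulatory genes 8 were tested in each line, and 0 passed the call with or without the block, beside at most 1.27% of all genes. CD83, a marker of mature dendritic cells, had 6.25 ± 0.402 and 7.57 ± 0.560 FPKM in THP-1 control and JOA cells. Its log2 fold change of 0.27 was below the fold threshold but passed the adjusted p with the block (0.0320). It was the 1 gene of the 8 to do so, beside 8.06% of all genes tested. The TNF family ligands CD70 and TNFSF9 had log2 fold changes of -0.08 and 0.15 in THP-1 cells.

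FUT4 adds the fucose that completes the CD15 antigen, and its transcript is a measure of the enzyme and not of the antigen. MOLM-13 cells had 46.9, 45.9 and 46.7 FPKM in the controls and 47.6, 48.6 and 46.9 FPKM with JOA. The groups did not overlap but the shift was small, with a log2 fold change of 0.04 and a 95% interval from -0.08 to 0.16. THP-1 cells had 42.4, 52.1 and 56.0 FPKM in the controls and 54.6, 61.4 and 58.8 FPKM with JOA, with 1 JOA library below the highest control. The log2 fold change was 0.22 (adjusted p = 0.315, or 0.0595 with the block), and 0.11 without THP-1 control 1. FUT4 overlaps PIWIL4 on the same strand and an antisense gene in the annotation, and how reads shared by these genes were counted is not given in the sources used here.

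The list of CD15 synthesis covered FUT4, other enzymes and sugar suppliers of the antigen. It also held sialyltransferases, which belong to the sialylated form and do not build CD15 itself. Of 19 listed genes 17 were matched in the table and 13 were tested in each line. Of these 0 passed the call with or without the block, beside at most 1.27% of all genes tested. FUT9, the other fucosyltransferase known for CD15, was listed at 0 in all libraries. TSTA3, which makes GDP-fucose, had 36.6 ± 4.46 and 37.9 ± 3.84 FPKM in MOLM-13 cells and 13.0 ± 0.269 and 14.2 ± 0.0742 FPKM in THP-1 cells, control and JOA. B4GALT1, a galactosyltransferase, had 15.5 ± 0.700 and 17.9 ± 0.674 FPKM in THP-1 cells, a log2 fold change of 0.21 (adjusted p = 0.0318 with the block, below the fold threshold). With the block the sialyltransferases ST3GAL6 and ST3GAL4 also passed the adjusted p alone in THP-1 cells, the former at a log2 fold change of 0.39 and the latter at -0.26. By that rule 2 of the 13 were higher and 1 lower there, beside 8.06% of all genes tested.

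ANPEP was well expressed in THP-1 cells and low in MOLM-13 cells. Its control mean exceeded that of 79.4% and 35.9% of the rows with any value above 0, respectively. THP-1 controls had 15.7, 13.1 and 13.1 FPKM and JOA libraries had 25.1, 15.5 and 16.6 FPKM. JOA replicate 1 stood above the others and JOA replicate 2 lay just below control 1, so the groups overlapped. The log2 fold change of 0.42 (SE 0.17) had an adjusted p of 0.267, and 0.0265 with the block, below the fold threshold in both. Without JOA replicate 1 the log2 fold change was 0.21. MOLM-13 controls had 0.543, 0.248 and 0.380 FPKM and JOA libraries had 0.709, 0.216 and 0.247 FPKM, with 1 pair higher and 2 pairs lower with JOA.

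CD33 libraries separated by treatment in both lines, by a small step. MOLM-13 controls had 21.3, 22.2 and 20.7 FPKM, all below the JOA libraries at 24.0, 23.6 and 23.3 FPKM. THP-1 controls had 6.01, 5.95 and 5.38 FPKM, all below the JOA libraries at 7.90, 6.88 and 6.48 FPKM. The log2 fold changes of 0.14 (SE 0.06) and 0.29 (SE 0.09) were under the fold threshold. Their adjusted p was 1.00 and 0.166 without the block, and 0.356 and 0.0342 with it. Among 16 listed siglecs, NAD-consuming ectoenzymes and aminopeptidases, CD33, CD38 and ANPEP included, 12 were tested in MOLM-13 and 13 in THP-1 cells. Of these 0 passed the call in either line with or without the block, beside at most 1.27% of all genes tested. The list's median log2 fold change in THP-1 cells was 0.26. ERAP1, an aminopeptidase of the endoplasmic reticulum that trims peptides for MHC class I, had 15.2 ± 0.516 and 18.3 ± 0.471 FPKM in THP-1 control and JOA cells. Its log2 fold change of 0.26 was below the fold threshold but passed the adjusted p with the block (0.0248). With the block 4 of the 13, CD33 and ANPEP included, were higher and 0 lower at an adjusted p under 0.05 in THP-1 cells, beside 8.06% of all genes tested.

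CD38, an ectoenzyme that consumes NAD and rises with retinoid-induced maturation, followed the replicate number more than the treatment in THP-1 cells. THP-1 controls had 4.08, 11.0 and 16.4 FPKM and JOA libraries had 5.52, 13.0 and 15.7 FPKM, so the values of a pair were closer than those of a group. The log2 fold change of 0.20 had an adjusted p of 0.889, and 0.204 with the block. MOLM-13 controls had 5.30, 9.23 and 12.0 FPKM and JOA libraries had 10.9, 9.91 and 13.6 FPKM. All 3 pairs were higher with JOA, the pair of replicate 1 by 1.02 and the others by 0.10 and 0.18 on the log2 scale, and the log2 fold change of 0.44 missed the threshold with the block (adjusted p = 0.404) and was 0.11 without control 1 and 0.69 without control 3.

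CD34 gave no basis for a comparison. It was listed at 0 in 11 of the 12 libraries and at 0.0129 FPKM in THP-1 control 2. Genes such as FLT3 and ENG, which mark progenitors as well, were well expressed in the same libraries, with 88.2 ± 10.7 and 9.56 ± 1.23 FPKM in MOLM-13 controls. Of 15 progenitor surface genes, 9 were tested in MOLM-13 and 10 in THP-1 cells, and 1 passed the call in THP-1 cells, beside 0.134% of all genes tested. KIT, the stem cell factor receptor, had 1.93, 1.61 and 1.21 FPKM in THP-1 controls and 0.445, 0.623 and 0.489 FPKM with JOA. KIT fell by 1.43 on the log2 scale (adjusted p = 0.0394, or 0.00804 with the block), and leaving out any 1 library left between 0 and 1 gene called in THP-1 cells. FLT3 had 15.7 ± 2.31 and 11.6 ± 1.24 FPKM in THP-1 control and JOA cells. The tetraspanin CD82 had 20.6 ± 1.19 and 28.9 ± 3.42 FPKM there. Their log2 fold changes of -0.43 and 0.48 passed the adjusted p with the block (0.00857 and 0.0107) but not the fold threshold. By the adjusted p with the block 2 of the 10 were higher and 2 lower in THP-1 cells, KIT included, beside 8.06% of all genes tested. CD99 varied within groups, with 0.207, 8.07 and 5.16 FPKM in THP-1 controls, 0.221, 0.222 and 0.173 FPKM with JOA, and 0.356 FPKM in MOLM-13 JOA replicate 2 against 4.71 FPKM or more in the other JOA libraries of that line.

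CD4, the coreceptor of helper T cells that monocytes carry as well, was the marker whose JOA values all lay below the controls in THP-1 cells. THP-1 controls had 42.5, 45.6 and 43.1 FPKM and JOA libraries had 34.8, 37.1 and 39.8 FPKM. The log2 fold change was -0.23 (SE 0.06), under the fold threshold, with an adjusted p of 0.123, or 0.0340 with the block. MOLM-13 cells had 47.0, 47.0 and 43.4 FPKM in the controls and 57.4, 46.7 and 46.3 FPKM with JOA, which overlapped, and a log2 fold change of 0.12, which was 0.02 without JOA replicate 1. The difference between the lines of -0.36 had the lowest unadjusted p of the 9 markers tested (0.0093), but its adjusted p was 0.520, and 0.126 with the block.

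**Figure D2:**
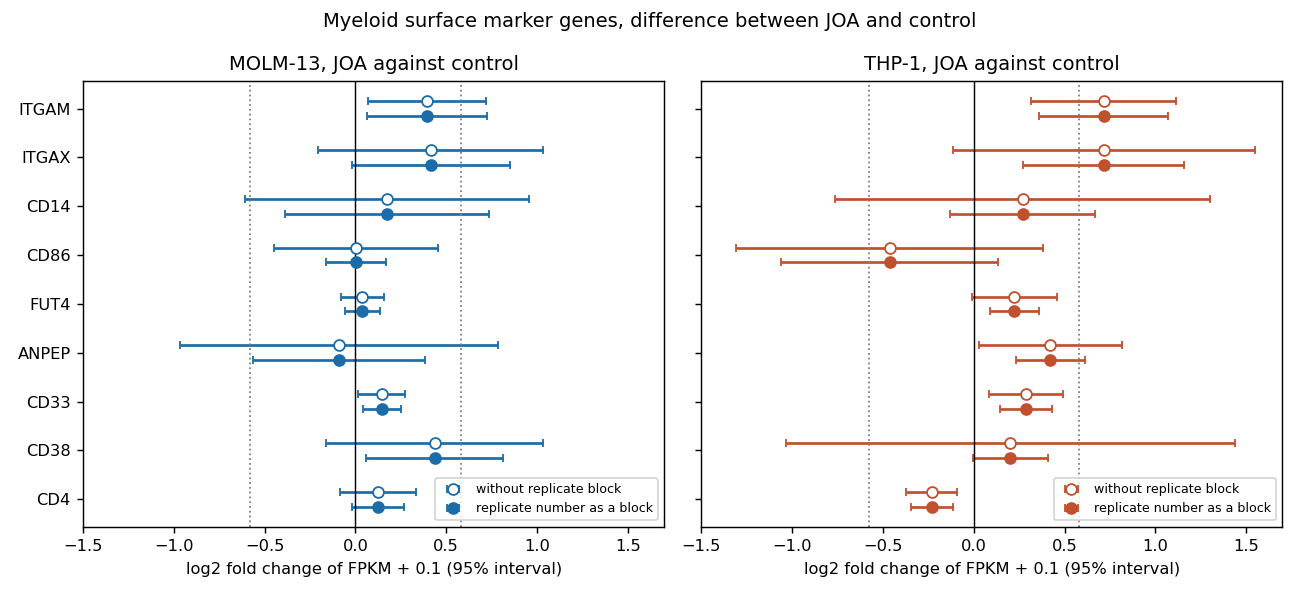
Log2 fold change of FPKM + 0.1, JOA against control, of the 9 markers tested (horizontal axis) with 95% intervals from limma, without the replicate block (open) and with it (filled), for MOLM-13 (left) and THP-1 cells (right). Dotted lines mark the fold threshold of 0.58, and ITGAM at 0.71 and ITGAX at 0.72 in THP-1 cells are the points beyond it.

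Counted over the 9 markers tested, 0 passed the call in MOLM-13 cells with or without the block, where 0% of 11693 genes did by limma. In THP-1 cells 0 markers passed without the block, beside 0.134% of 12712 genes, and 1 passed with it, ITGAM, beside 1.27%. At an adjusted p under 0.05 without the fold threshold, 4 markers passed with the block in THP-1 cells, ITGAM, ANPEP, CD33 and CD4, beside 8.06% of genes. An unadjusted p under 0.05 without the block was reached by 2 markers in MOLM-13 cells, ITGAM and CD33, beside 4.11% of genes (481), and by 4 in THP-1 cells, ITGAM, CD4, CD33 and ANPEP, beside 16.9%. JOA values lay wholly above control for ITGAM, FUT4 and CD33 in MOLM-13 cells, where 5.1% of genes did so, and wholly below for 0 markers, beside 4.55%. They lay wholly above for ITGAM and CD33 in THP-1 cells, where 14.6% of genes did so, and wholly below for CD4, where 8.81% did so. An exact two-sided permutation test of such groups gives p = 0.1, the smallest it can give with 3 libraries against 3. The mean was higher with JOA for 8 markers in MOLM-13 and 7 in THP-1 cells, beside 52.4% and 56.7% of genes, and all 3 pairs were higher for 4 and 5 markers, beside 18.5% and 29.3%. The median log2 fold change of the markers was 0.14 in MOLM-13 and 0.27 in THP-1 cells, against 0.01 and 0.02 over all genes tested. In the interaction 0 of the 9 markers passed by limma, beside 0% of 12626 genes without the block and 0.0475% with it, and an unadjusted p under 0.05 was reached without the block by 1 marker, CD4, beside 7.24% of genes (914), and with it by 3, CD4, ANPEP and FUT4, beside 14.9%.

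The spread over libraries was divided between treatment and replicate number. In a split of the sum of squares over the 6 libraries of a line, the replicate number took a median of 57.3% in MOLM-13 and 41.7% in THP-1 cells over all genes tested, beside 40% of the degrees of freedom. The treatment took a median of 10.8% and 23.4%, beside 20% of the degrees of freedom. For CD14 the replicate number took 86.4% and 90.2%, for CD86 98.9% and 63.4%, and for CD38 50.3% and 96.4%. For ITGAM the replicate number took 4.62% and 9.08%, while the treatment took 56.0% and 71.1%. CD33 was similar, with 84.3% and 68.5% for the treatment, and so was CD4 in THP-1 cells with 76.7%. The pair of replicate 1 held the highest JOA minus control difference of the 3 pairs for 8 of 9 markers in MOLM-13 and 7 of 9 in THP-1 cells, where it did so for 35.6% and 35.8% of all genes tested. Control replicate 1 was the lowest of the 6 libraries for 4 of 9 markers in MOLM-13 and 5 of 9 in THP-1 cells, against 19.6% and 20.8% of genes. This was noticed after the values were seen and was not tested.

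**Figure D3:**
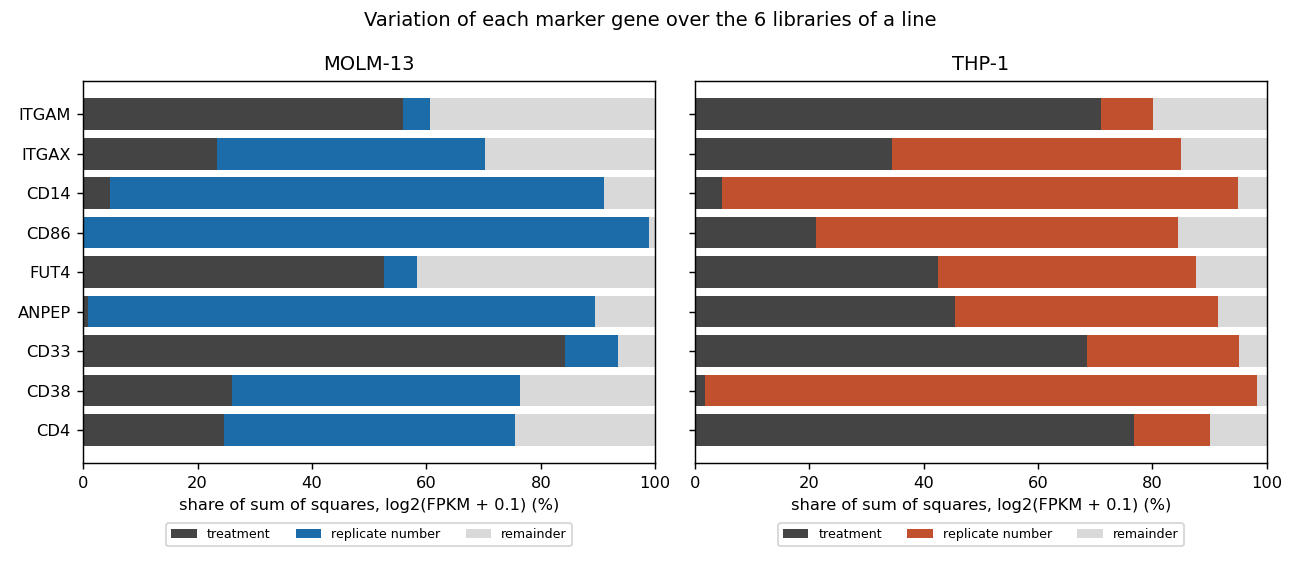
Share of the sum of squares of log2(FPKM + 0.1) over the 6 libraries of each line (horizontal axis, percent) that falls to treatment (dark), replicate number (colored) and the remainder (light) for 9 markers. Treatment takes 71.1% for ITGAM in THP-1 cells, and replicate number takes 98.9% for CD86 in MOLM-13 and 96.4% for CD38 in THP-1 cells.

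The surface genes of mature cells beyond these markers gave a mixed picture. Of 30 monocyte and macrophage surface genes, 22 were tested in each line and 0 passed the call without the block. With it, 1 rose in THP-1 cells, beside 1.27% of all genes called, the scavenger receptor MARCO, from 1.28 ± 0.336 to 2.59 ± 0.728 FPKM (log2 fold change 0.96, adjusted p = 0.00659, and 0.0989 without the block). CD68, a lysosomal glycoprotein of macrophages, had 131 ± 7.40 and 168 ± 12.8 FPKM in THP-1 control and JOA cells, and CD74, the MHC class II invariant chain, had 74.0 ± 2.87 and 56.6 ± 1.25 FPKM, with log2 fold changes of 0.36 and -0.38 below the fold threshold. CD74 passed the adjusted p alone without the block (0.0394, or 0.00821 with it), as 38 genes did, and CD68 passed it with the block (0.0755 and 0.0254). CCR2, the monocyte chemokine receptor, differed by -0.15 on the log2 scale. With the block 4 of the 22 were higher and 2 lower at an adjusted p under 0.05 in THP-1 cells, where 8.06% of all genes tested passed, and in MOLM-13 cells 0 were. Of 15 granulocyte surface genes 6 were tested in each line, and 0 passed the call with or without the block, beside at most 1.27% of all genes. The growth factor receptor CSF3R had log2 fold changes of 0.34 in MOLM-13 and 0.22 in THP-1 cells, the chemokine receptor CXCR2 had 0.15 and 0.06, and the IgA receptor FCAR had 0.26 and 0.71. Among 9 genes of myeloid identity 2 had a log2 fold change above 0 in THP-1 cells, with a median of -0.08. In MOLM-13 cells 7 had one above 0, with a median of 0.15. Over all genes tested 56.7% in THP-1 and 52.4% in MOLM-13 cells were above 0, with medians of 0.02 and 0.01. The call was passed by 1 of the 9, with the block only, beside 1.27% of all genes. It was the granule enzyme MPO, which fell in THP-1 cells from 20.2 ± 7.61 to 13.1 ± 5.40 FPKM (log2 fold change -0.64, adjusted p = 0.00659). With the block 0 of the 9 were higher and 2 lower, MPO included, at an adjusted p under 0.05 there, beside 8.06% of all genes tested. All calls made with the block ended when every gene with any value above 0 was kept, where 0 of 16046 genes passed by limma, with 3312 at an unadjusted p under 0.05.

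**Figure D4:**
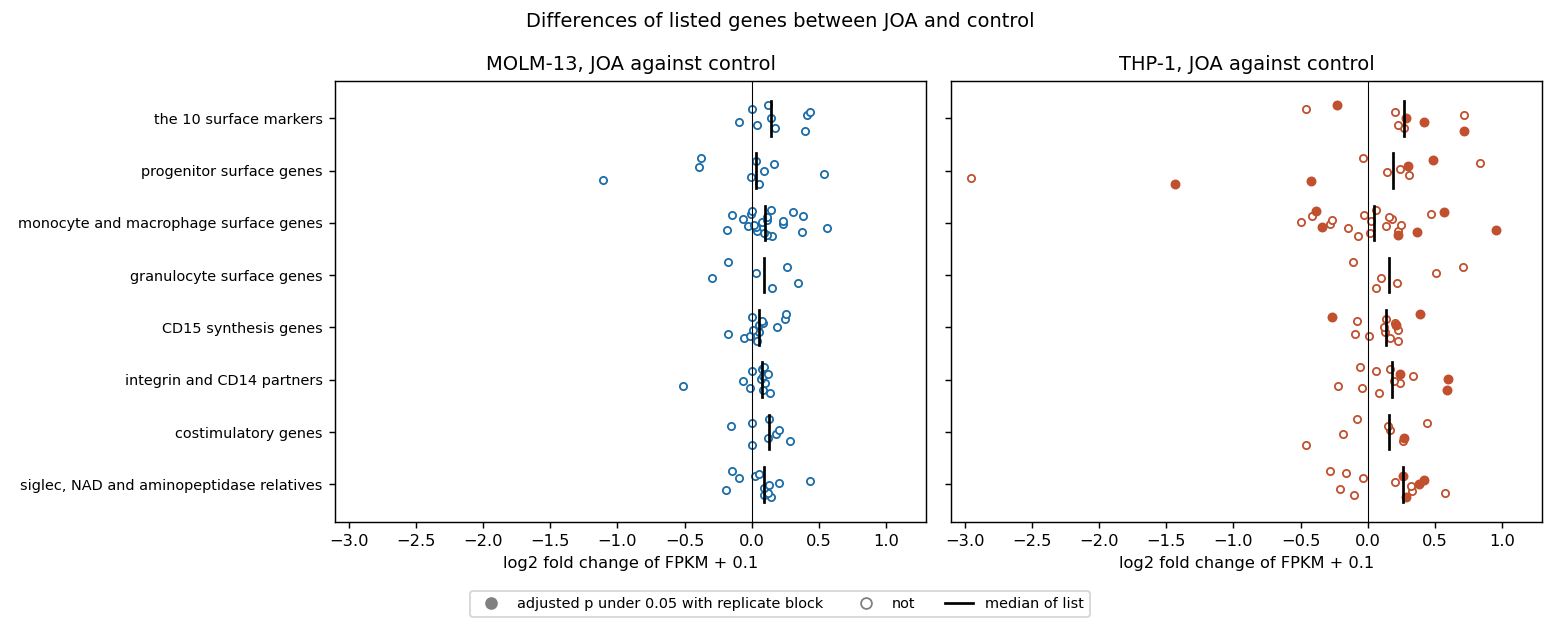
Log2 fold change of FPKM + 0.1, JOA against control (horizontal axis), of each tested gene in the 10 surface markers and 7 lists of related genes (vertical axis) in MOLM-13 (left) and THP-1 cells (right), with black bars for the median and filled points for an adjusted p under 0.05 with the replicate block. The medians of the 10 surface markers, 0.14 and 0.27, lie to the right of 0 in both lines, and filled points stand on both sides of 0 in THP-1 cells and are absent in MOLM-13 cells.

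Over the 12 libraries, after the mean of each line was taken out, ITGAM ran closest to ITGAX among the markers correlated, with Pearson's r of 0.849, followed by FUT4 (0.783), CD33 (0.674) and CD38 (0.536), while CD4 had -0.26. ITGAX ran with FUT4 (0.809) and CD38 (0.775). Among 9239 genes the most similar to ITGAM were DDX60L (0.960), STAT5B (0.951), CCDC159 (0.940), NBR1 (0.938) and PRKCA (0.936). DDX60L had 6.51 and 7.70 FPKM in MOLM-13 control and JOA cells and 8.37 and 11.0 FPKM in THP-1 control and JOA cells, with log2 fold changes of 0.24 and 0.40. These values describe libraries that share treatment, replicate number and depth.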

How the data were processed

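Expression was measured by mRNA-seq of 12 libraries from a stranded kit with paired-end reads. The authors deposited FPKM per gene and library, scaled to transcript length and mapped fragments. Submitters' processing notes name Trimmomatic, HISAT2, Cufflinks, HTSeq and hg38, without versions or order. The table held 20030 rows, of which 3488 had no value above 0 and 27 carried names turned into dates. Groups and replicate numbers came from the labels. DESeq, used by the authors, needs counts and was not run.

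A gene was kept where its FPKM averaged 0.1 or more in the libraries compared. JOA was compared with control in each line on log2(FPKM + 0.1) with limma 3.58.1 in R 4.3.3 (lmFit, eBayes with trend), and p-values were adjusted over all genes tested by Benjamini-Hochberg. Calls needed an adjusted p under 0.05 and a log2 fold change of at least 0.58 in size, while the interaction over 12 libraries needed the adjusted p alone. CD34 did not pass the filter. Fold changes on this scale understate changes of low genes. Whole fragments could not be recovered for the low markers, so no counting interval is given. The procedure was run on simulated data, where the planted changes were larger than any marker's change with JOA and spared low genes. That run does not show how well changes as small as these are found.

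The replicate number was also fitted as a block. Deviations from group means of same-numbered control and JOA libraries correlated at 0.264 to 0.398 in MOLM-13 and 0.139 to 0.319 in THP-1 cells. Those of different numbers correlated at -0.256 to 0.0168 and at -0.259 to -0.0280. The labels and the study's methods do not mention pairing, so the block rests on these correlations in the same data. Across lines, same-numbered controls correlated at 0.0698 to 0.131, and those of different numbers at -0.0794 to 0.0152. For JOA libraries across lines the ranges were -0.00518 to 0.105 and -0.0776 to 0.0576. The same-number values were weaker than within a line, and the numbers were not taken as pairs across lines.

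The members and lists were chosen with earlier results of these data known. All 10 markers, list genes that passed a call, the 3 genes of each list with the highest mean, KIT, CD99 and the 5 genes most similar to ITGAM were named, and FUT9 and the genes at 0 were added after their values were seen. Exact tests and correlations used Python 3.11.15 with scipy 1.17.1. Gene positions came from GENCODE and promoters from RefSeq, both on GRCh38. Alternatives covered the pseudocount, filter, rescaling, trend, block, a fit on all libraries, thresholds and leaving out libraries.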

Additional observations from a re-analysis of the deposited data

How the results depend on the processing

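Over the alternatives, 611 values of single markers kept their direction and side of the threshold, 28 changed sign, 7 newly passed and 5 no longer passed. In THP-1 cells the 17 genes called became 8 with a pseudocount of 1, 0 with any value above 0 kept, 161 with the replicate block, 1 without the trend, 56 in a fit on all libraries and 38 without a fold threshold, and 0 to 1 when a library was left out. With the block, 0 genes were called with any value above 0 kept, and 162, 207 and 222 without both libraries of replicate 1, 2 or 3. The markers called in THP-1 cells were 0 without the block, 1 with it, and 2 with it and without replicate 2 or 3. In MOLM-13 cells 0 genes became 1 with any value above 0 kept and 1 in the fit on all libraries. For the interaction, 0 genes became 1 with a pseudocount of 1, 3 with any value above 0 kept, 1 rescaled to TPM and 6 with the block. The genes called between control cells ranged from 5448 to 5718 and the markers from 3 to 5 when a library was left out. Block fits without both libraries of a number, or with the wider filter, were chosen after the data were seen. The block changed no other call of a marker between JOA and control than that of ITGAM in THP-1 cells. Between control cells, where the numbers were not taken as pairs, the block added ITGAX (-0.67, adjusted p = 0.0211). The cause of these shifts was not tested.

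The following log2 fold changes turned sign. With single libraries left out, MOLM-13 cells gave -0.52 to 0.16 for ANPEP, -0.026 to 0.51 for CD14 and -0.18 to 0.17 for CD86, and THP-1 cells gave -0.21 to 0.61 for CD14 and -0.36 to 0.65 for CD38. The interaction gave -0.38 to 0.44 for CD14, -0.80 to 0.22 for CD38 and -0.16 to 0.63 for ITGAX, and CD38 between control cells gave -0.31 to 0.68. CD86 in MOLM-13 cells was -0.0067 rescaled to TPM, -0.00086 with median-of-ratios size factors and -0.033 with the block and without replicate 1, ANPEP there was 0.10 with the block and without replicate 3, and CD4 between control cells was 0.015 rescaled to TPM. Total depth is unknown, so the precision of CD14, CD34 and CD86 at values under 1 FPKM could not be given.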
